A study of Mus musculus with 12 samples.

Results

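The *Gimap* genes encode the GTPases of the immunity-associated proteins, a vertebrate family of small GTP-binding proteins made mainly by lymphocytes. Some members, not all, are anchored to membranes of the endoplasmic reticulum, Golgi, lysosome or mitochondria. Several members are needed for the survival of naive T and B cells, and loss of *Gimap5* in rats and mice depletes lymphocytes. The family is best studied in T cells; innate lymphocytes express it too. The mouse files held 8 members, *Gimap1* and *Gimap3* to *Gimap9*, of 24346 gene symbols. The family was chosen on these same data, because *Gimap6* was lower in the IL-33 libraries and higher in the 6DKO libraries, so the 4 comparisons that bear on that choice are given for *Gimap6* as a description with no test.

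The study sequenced RNA of group 2 innate lymphoid cells (ILC2s), lung-resident cells that answer the alarmin IL-33 with type 2 cytokines. WT mice and mice lacking the semaphorin gene *Sema6d* (labelled 6DKO), both on a C57BL/6J background and young adults, received PBS or IL-33 into the nose on 3 days. The labels give 50 ng of IL-33, and the study's methods give a higher dose. ILC2s were then sorted from the lung as CD45-positive, lineage-negative cells with Thy1.2 and the IL-33 receptor ST2. The groups are called WT PBS, 6DKO PBS, WT IL-33 and 6DKO IL-33, with 3 libraries in each. Whether any library pooled mice, and which part of *Sema6d* was deleted, is not given in the sources used here.

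Values are FPKM, fragments per kilobase of transcript scaled to the size of the library, so levels can be compared between genes per length. *Sema6d* itself was still measured in the libraries labelled 6DKO. It was at 27.5, 46.1 and 37.5 FPKM in WT PBS against 29.0, 22.9 and 19.8 in 6DKO PBS, groups that overlapped. It was at 19.7, 35.5 and 28.7 FPKM in WT IL-33 against 15.4, 13.6 and 13.8 in 6DKO IL-33, which did not overlap. A value over the whole gene does not show a deleted exon, so these values do not settle the label of a library.

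The most abundant marker of each list is named by its mean over the 12 libraries, and single libraries can differ. The 13 ILC2 markers looked at, among them *Gata3*, *Il1rl1* (ST2), *Il7r* and *Klrg1*, were above 0 in all 12 libraries. Their summed level was between 5892 and 9369 FPKM, with *Id2* the most abundant. Of the 10 T cell markers, *Cd4* was listed at 0 in every library and *Cd3d* and *Cd8a* stayed at or below 3.94 FPKM. *Cd3e* reached 9.81 FPKM in a 6DKO PBS library, *Cd6* 24.7 FPKM in a WT PBS library and *Trat1* 27.3 FPKM in a 6DKO IL-33 library. *Cd3g* and *Lat* made up most of the T cell sum of 349 to 675 FPKM, with *Cd3g* the most abundant on average. The 8 B cell markers summed to at most 26.9 FPKM, with *Ms4a1* and *Pax5* listed at 0 in all 12 libraries, and *Cd79b* was the most abundant. The 10 endothelial markers (most abundant *Pecam1*) summed to 57.4 FPKM in 6DKO PBS replicate 2 and at most 26.6 in the others, and *Tek* was listed at 0 in all 12 libraries. In 6DKO PBS replicate 2, *Egfl7* gave 21.2 FPKM, *Ramp2* 13.1, *Cldn5* 12.7 and *Pecam1* 10.2, and *Pecam1* reached 20.4 in another library. The 5 eosinophil markers (most abundant *Ccr3*) summed to at most 2.0 FPKM and the 7 mesenchymal markers (most abundant *Col3a1*) to 4.5 FPKM in 6DKO PBS replicate 2 and at most 0.54 in the others.

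Some libraries stood apart in markers of other cells. 6DKO PBS replicate 2, highest in endothelial and mesenchymal markers, also held all 7 NK cell markers, summing to 846 FPKM, of which *Gzma* gave 653. The other 11 libraries summed to at most 48.6 FPKM, and *Ncr1* was listed at 0 in 10 libraries. For the 10 macrophage markers, 6DKO IL-33 replicate 2 summed to 413 FPKM, of which *Chil3* gave 394, 6DKO PBS replicate 2 to 111, 6DKO IL-33 replicate 3 to 89.6 and the rest to at most 5.8. For the 6 epithelial markers, 6DKO IL-33 replicate 3 reached 101 FPKM, most of it *Sftpc*, and the other libraries 7.0 to 54.0. *Epcam*, the most abundant of them on average, was at 16.4 to 54.0 FPKM in the 6 PBS libraries and at 0 to 8.71 in the 6 IL-33 libraries. Of the other markers, *Il2ra* was lower and *Klrg1* and *Trat1* were higher in every IL-33 library than in every PBS library. The part of other cells in the treatment and genotype differences was not tested beyond leaving out each library in turn.

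Depth was lower in 5 of the 6 PBS libraries than in any IL-33 library. Relative to WT IL-33 replicate 3, depth ran from 0.739 to 0.998 over the PBS libraries and from 0.968 to 1.39 over the IL-33 libraries. Among 3617 genes whose mean lay between 5 and 20 FPKM, each PBS library listed 169 to 641 at 0, and each IL-33 library 25 to 50. The median SD of a gene over replicates was 0.65 and 0.70 on the log2(FPKM + 1) scale in WT PBS and 6DKO PBS, and 0.29 and 0.28 in WT IL-33 and 6DKO IL-33. A listed 0 among PBS libraries is therefore given as listed, not as absence, and the source of these zeros was not tested.

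Averaged over the 12 libraries, an order that differs from those within single groups given below, *Gimap3* was at 256 FPKM and *Gimap6* at 210.0, above 96.0% and 95.2% of the 11445 genes tested. *Gimap1* followed at 109 FPKM, *Gimap9* at 47.7, *Gimap5* at 45.8, *Gimap4* at 27.5 and *Gimap8* at 23.2. *Gimap7* was lowest at 5.72 FPKM. All 8 members had a mean of at least 0.5 FPKM, the minimum for a gene to be tested, so none depended on being listed.

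The summed FPKM of the 8 members was 1011, 784 and 919 in WT PBS and 1061, 1194 and 1216 in 6DKO PBS. It was 396, 359 and 346 in WT IL-33 and 469, 477 and 473 in 6DKO IL-33. Every 6DKO library lay above the WT libraries of the same treatment, but this rested on *Gimap6*, the member the family was chosen by. Without it the sums were 757, 576 and 728 FPKM in WT PBS against 705, 834 and 827 in 6DKO PBS, and 294, 257 and 261 in WT IL-33 against 326, 328 and 293 in 6DKO IL-33, so the genotypes overlapped in both treatments. With or without *Gimap6*, every PBS library lay above every IL-33 library. In bulk samples such as these, fewer cells of a type and less RNA per cell cannot be told apart.

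**Figure D1:**
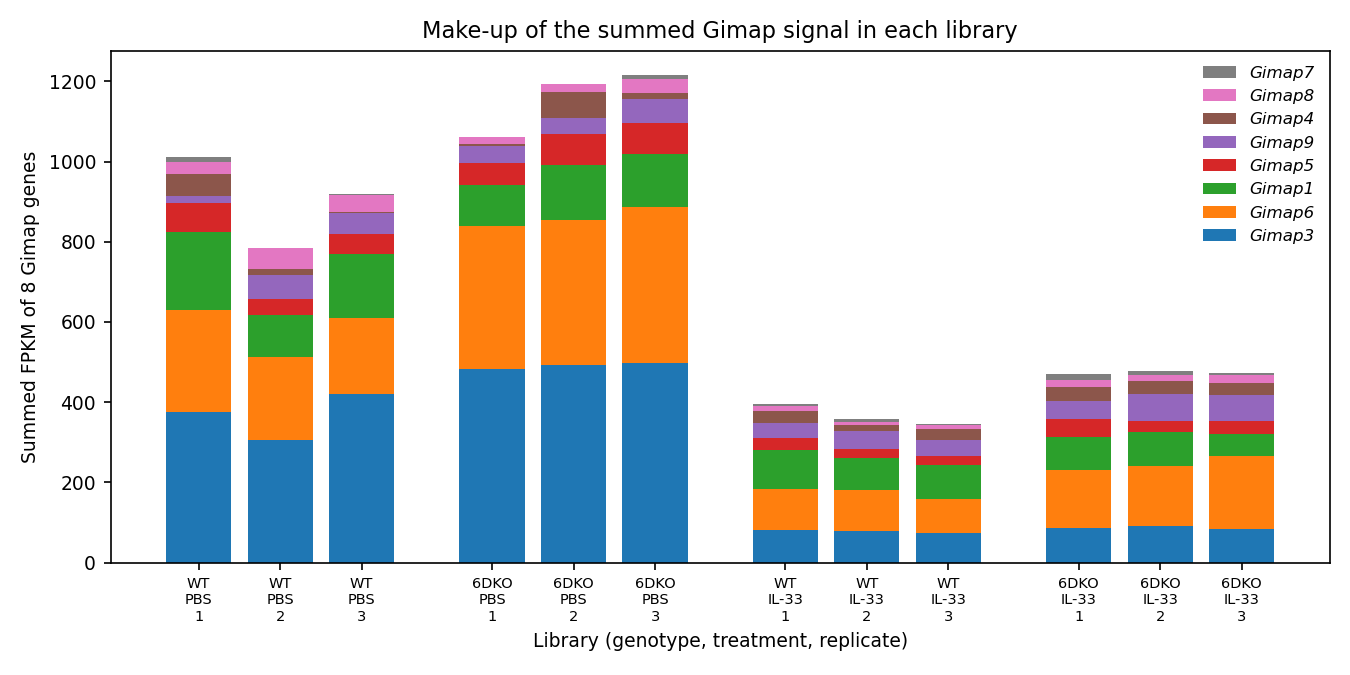
Stacked bars of FPKM for the 8 *Gimap* genes in each of the 12 libraries; the height of a bar is the family's summed FPKM. The sum runs from 784 to 1216 FPKM in the PBS libraries and from 346 to 477 FPKM in the IL-33 libraries.

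*Gimap6*, whose protein binds the autophagy protein GABARAPL2, was the member the family was chosen by. The WT PBS libraries had 255, 208 and 191 FPKM, and the 6DKO PBS libraries 356, 360 and 389 FPKM. After IL-33, the WT libraries had 102, 102 and 85.1 FPKM, and the 6DKO libraries 143, 149 and 180 FPKM. No group overlapped any other, and the order was 6DKO PBS, WT PBS, 6DKO IL-33 and WT IL-33. The group means were 368 ± 18.3, 218 ± 32.8, 157 ± 19.9 and 96.3 ± 9.66 FPKM in that order (SD, n = 3). With IL-33 the mean was 2.26-fold lower in WT and 2.34-fold lower in 6DKO, and the 6DKO mean was 1.69-fold that of WT under PBS and 1.64-fold under IL-33. As log2 differences these were −1.16 ± 0.16, −1.23 ± 0.16, 0.76 ± 0.16 and 0.70 ± 0.16 (SE).

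The interaction of genotype and treatment, the difference between the responses to IL-33 in 6DKO and in WT, was not itself used to choose the family and was tested. For *Gimap6* it rests on the same values of the 12 libraries as the choice, so nothing is read from its p-value. The *Gimap6* interaction was −0.06 ± 0.22 (SE; adjusted p = 0.974, limma), smaller than its error. Its sign turned without WT PBS replicate 3 or without 6DKO IL-33 replicate 1. Of the 8 members, 0 had an adjusted p under 0.05 for the interaction in limma, and 1 had an unadjusted p under 0.05. Of all 11445 genes, 0.0262% passed at the adjusted p (3 genes) and 5.69% at the unadjusted p (651 genes).

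*Gimap3*, a close relative of *Gimap5* that is also implicated in T cell survival, was the most abundant member under PBS. The WT PBS libraries had 375, 306 and 419 FPKM, and the 6DKO PBS libraries 484, 494 and 498 FPKM. With IL-33, 81.1, 79.3 and 73.4 FPKM were measured in WT, against 86.7, 91.9 and 84.6 FPKM in 6DKO. The PBS and IL-33 libraries lay far apart in both genotypes, and the 6DKO libraries lay just above the WT libraries in both treatments. The mean was 4.70-fold lower with IL-33 in WT and 5.61-fold lower in 6DKO, and the 6DKO mean was 1.34-fold that of WT under PBS and 1.13-fold under IL-33. The interaction was −0.27 ± 0.20 (SE; adjusted p = 0.887, limma), and −0.14 without WT PBS replicate 2.

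*Gimap5*, which keeps naive lymphocytes alive and acts at lysosomes, was at 71.1, 39.1 and 49.9 FPKM in WT PBS and 56.9, 76.6 and 76.7 FPKM in 6DKO PBS. It was at 30.7, 21.5 and 23.5 FPKM in WT IL-33 and 44.2, 28.7 and 31.2 FPKM in 6DKO IL-33. The IL-33 libraries were lower than the PBS libraries within each genotype with no overlap, while the genotypes overlapped in both treatments. The mean was 2.11-fold lower with IL-33 in WT and 2.02-fold lower in 6DKO. The interaction was 0.02 ± 0.40 (SE; adjusted p = 0.999, limma).

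*Gimap1*, needed for the upkeep of mature B and T cells, was at 195, 105 and 159 FPKM in WT PBS and 101, 138 and 132 FPKM in 6DKO PBS. It was at 96.4, 79.8 and 84.3 FPKM in WT IL-33 and 83.3, 83.5 and 56.5 FPKM in 6DKO IL-33. IL-33 libraries again lay below PBS libraries of the same genotype without overlap, though by a narrow margin. Its mean was 1.76-fold lower in WT and 1.66-fold lower in 6DKO. *Gimap1* was the only member of the 8 whose mean was lower in 6DKO under both treatments, and the genotypes overlapped.

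*Gimap8*, a longer member with several GTPase domains, was at 31.8, 51.2 and 40.5 FPKM in WT PBS and 16.6, 20.6 and 36.4 FPKM in 6DKO PBS. It was at 11.2, 6.93 and 9.02 FPKM in WT IL-33 and 19.1, 14.8 and 19.6 FPKM in 6DKO IL-33. In WT the IL-33 libraries were all below the PBS libraries, whereas in 6DKO the treatments overlapped. The log2 difference with IL-33 was −2.06 ± 0.35 in WT and −0.37 ± 0.35 in 6DKO (SE). The 6DKO value was −0.06 without 6DKO PBS replicate 3 and −0.60 without 6DKO PBS replicate 1. The interaction was 1.69 ± 0.49 (SE), but its adjusted p was 0.685 in limma, so the responses of the genotypes were not shown to differ. It stayed above 0 under all 19 alternatives, with a lowest value of 1.46.

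**Figure D2:**
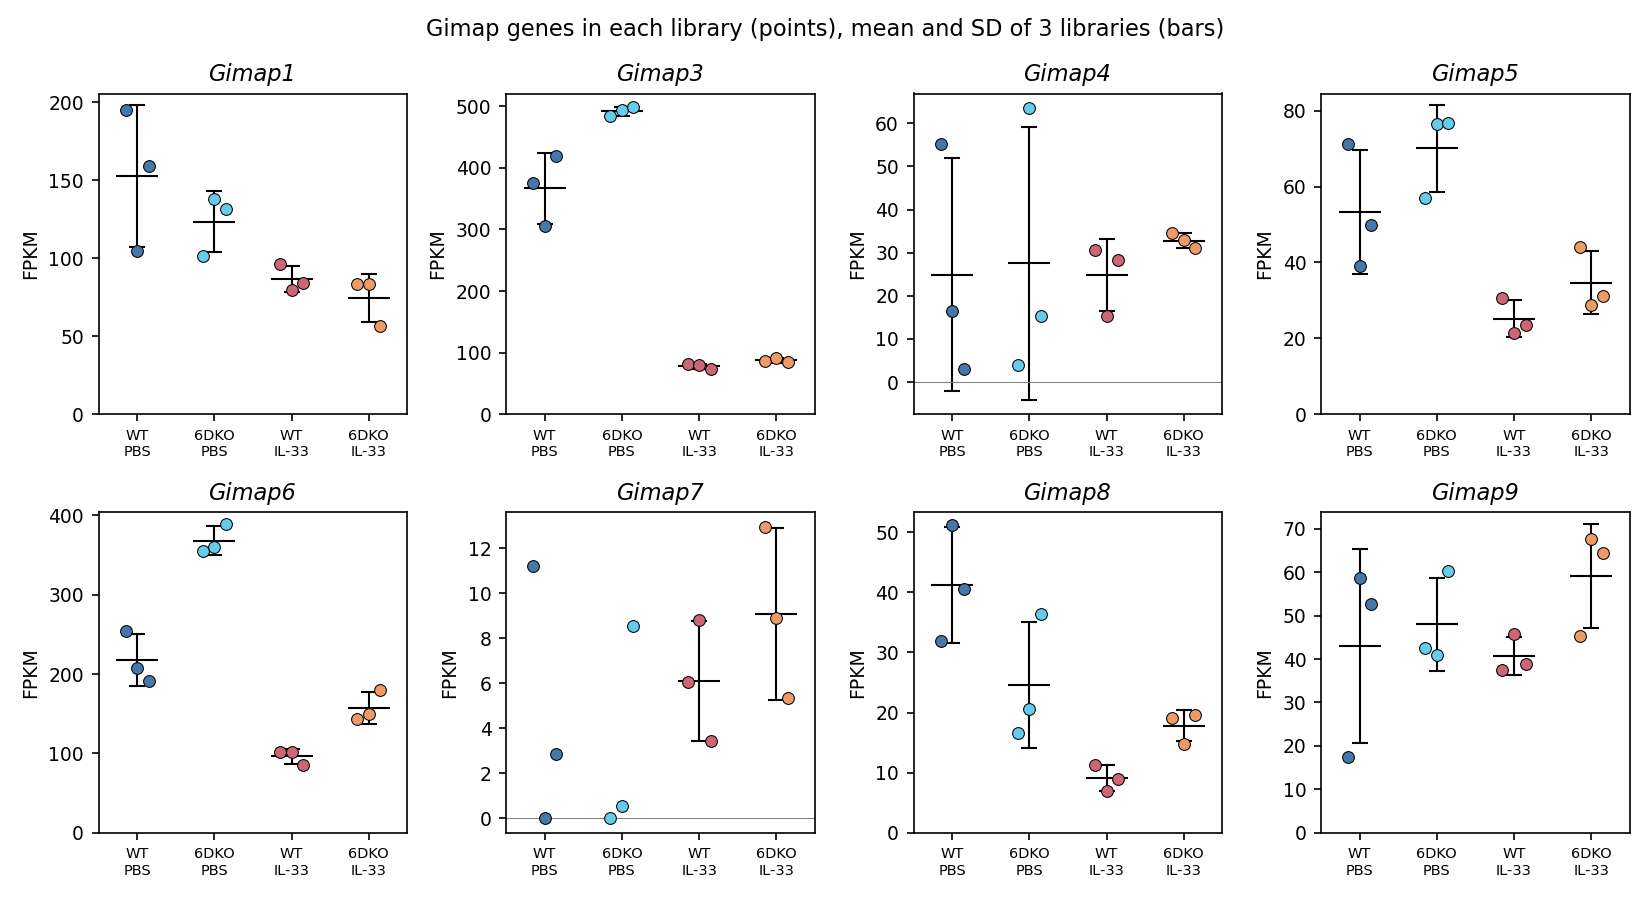
FPKM of each *Gimap* gene (1 panel each, linear axis) in the 3 libraries of each group; the black bars are the mean and SD, left out for *Gimap7* groups with a listed 0. *Gimap6* libraries fall into 4 groups without overlap, from 85.1 FPKM in WT IL-33 to 389 FPKM in 6DKO PBS, and *Gimap4* libraries spread from 2.98 to 63.5 FPKM under PBS.

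*Gimap9*, one of the less studied members, had group means between 40.6 and 59.1 FPKM. It was at 17.5, 58.7 and 52.7 FPKM in WT PBS, 42.6, 41.0 and 60.2 in 6DKO PBS, 37.4, 45.7 and 38.9 in WT IL-33, and 45.4, 67.6 and 64.4 in 6DKO IL-33. The groups overlapped in all 4 comparisons. Without WT PBS replicate 1, the lowest library, the log2 difference with IL-33 in WT moved from 0.09 to −0.45, and that of 6DKO against WT under PBS from 0.31 to −0.23.

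*Gimap4*, linked in T cells to apoptosis, varied widely under PBS. It was at 55.2, 16.6 and 2.98 FPKM in WT PBS and 3.95, 63.5 and 15.2 FPKM in 6DKO PBS. It was at 30.7, 15.4 and 28.3 FPKM in WT IL-33 and 34.5, 32.9 and 31.0 FPKM in 6DKO IL-33. The PBS libraries spanned the whole range of the IL-33 libraries, so no treatment difference can be read from them; under IL-33 the 6DKO libraries lay just above the WT libraries. The highest library, 6DKO PBS replicate 2, was the one with the NK cell markers. The log2 difference of 6DKO against WT under PBS, 0.13, became −0.82 without that library, −0.86 without WT PBS replicate 3, 1.05 without WT PBS replicate 1 and 1.03 without 6DKO PBS replicate 1. *Gimap7* was listed at 0 in WT PBS replicate 2 and 6DKO PBS replicate 1, and ranged from 0.536 to 11.2 FPKM in the other PBS libraries and from 3.46 to 12.97 FPKM with IL-33. Among 1174 genes of a like mean level, a PBS library listed 9.11% to 27.2% at 0, and an IL-33 library 1.02% to 2.30%.

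The order of the members shifted with treatment. Under PBS, *Gimap3* led, followed by *Gimap6* and *Gimap1*, in both genotypes; *Gimap6* and *Gimap1* overlapped in WT but not in 6DKO. *Gimap3* made up 40.6% of the family's summed FPKM in WT PBS and 42.6% in 6DKO PBS, on average, and 21.3% and 18.5% in WT IL-33 and 6DKO IL-33. After IL-33, *Gimap6* led, at 26.2% of the sum in WT and 33.3% in 6DKO, where it did not overlap the next gene, *Gimap3*. In WT IL-33, *Gimap6*, *Gimap1* and *Gimap3* followed each other with overlapping neighbours. *Gimap7* was lowest in all 4 groups.

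*Gimap6* is left out of the counts and medians over members that follow. With IL-33 in WT, 4 of the other 7 (*Gimap1*, *Gimap3*, *Gimap5* and *Gimap8*) were lower without overlap, as were 9.19% of all genes. With IL-33 in 6DKO this held for 3 of the 7 (*Gimap1*, *Gimap3* and *Gimap5*), and for 8.71% of all genes. Under PBS, 1 of the 7 (*Gimap3*) was higher in 6DKO without overlap (all genes, 4.4%), and under IL-33 3 of the 7 (*Gimap3*, *Gimap4* and *Gimap8*; all genes, 6.86%). The median log2 difference of the 7 with IL-33 was −0.77 in WT and −0.37 in 6DKO, against medians over all genes of 0.16 and 0.14. The latter 2 medians became −0.04 and −0.02 with quantile normalization, under which the *Gimap6* differences were −1.21 and −1.23. Between genotypes the median of the 7 was 0.13 under PBS and 0.45 under IL-33, and that of all genes was 0.00 in both.

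Among these 7, limma with an adjusted p under 0.05 called 2 in the IL-33 comparison in WT (*Gimap3* and *Gimap8*, both lower) and 1 in 6DKO (*Gimap3*, lower). Of all genes, 2.69% were called higher and 1.63% lower in WT, and 1.86% higher and 1.16% lower in 6DKO. Between genotypes 0 of the 7 were called in limma under PBS, with 2 at an unadjusted p under 0.05, and 0 under IL-33, with 1. Of all genes, 0.612% were called under PBS and 0.00874% under IL-33, and 1493 and 222 of the 11445 had an unadjusted p under 0.05. Since the family was picked on these comparisons, nothing is read from the counts. The PBS count over all genes, 70, fell to 1 when only the PBS libraries were fitted, and ran from 20 without 6DKO IL-33 replicate 1 to 207 without WT PBS replicate 3. Without WT PBS replicate 2, the WT count rose from 2 to 4, with *Gimap1* and *Gimap5* added.

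The 8 genes lie together on chromosome 6 (GRCm38, GENCODE vM21), in 123618 bases from 48647234 to 48770851. From low to high coordinates the order is *Gimap8*, *Gimap9*, *Gimap4*, *Gimap6*, *Gimap7*, *Gimap1*, *Gimap5* and *Gimap3*; *Gimap6* (48701582 to 48708225) and *Gimap3* (48764464 to 48770851) are on the minus strand and the others on the plus strand. Leaving out *Gimap6*, the members lower with IL-33 without overlap in both genotypes (*Gimap1*, *Gimap5* and *Gimap3*) lay side by side at the high end. *Gimap6*, also lower without overlap in both genotypes, lay apart from them, between *Gimap4* and *Gimap7*. *Gimap9*, *Gimap4* and *Gimap7* overlapped in both genotypes, and *Gimap8*, at the low end, was lower without overlap in WT only. *Gimap3* and *Gimap5* share 86.1% of the alignment of their coding bases, gaps included, the closest pair, followed by *Gimap7* and *Gimap9* at 64.5%. As a share of the shorter coding sequence, *Gimap3* and *Gimap5* were again closest at 88.5%, and *Gimap7* and the longer *Gimap8* came next at 71.9%. Of the 75-base stretches in the transcripts of *Gimap3*, 3.32% also occur in *Gimap5*, so few reads could be split between them, and the other 6 share none with another member. Exons of *Gimap1* are covered over 36.0% of their bases by the antisense gene *Gimap1os*, and without strand the reads of these 2 genes cannot be told apart.

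**Figure D3:**
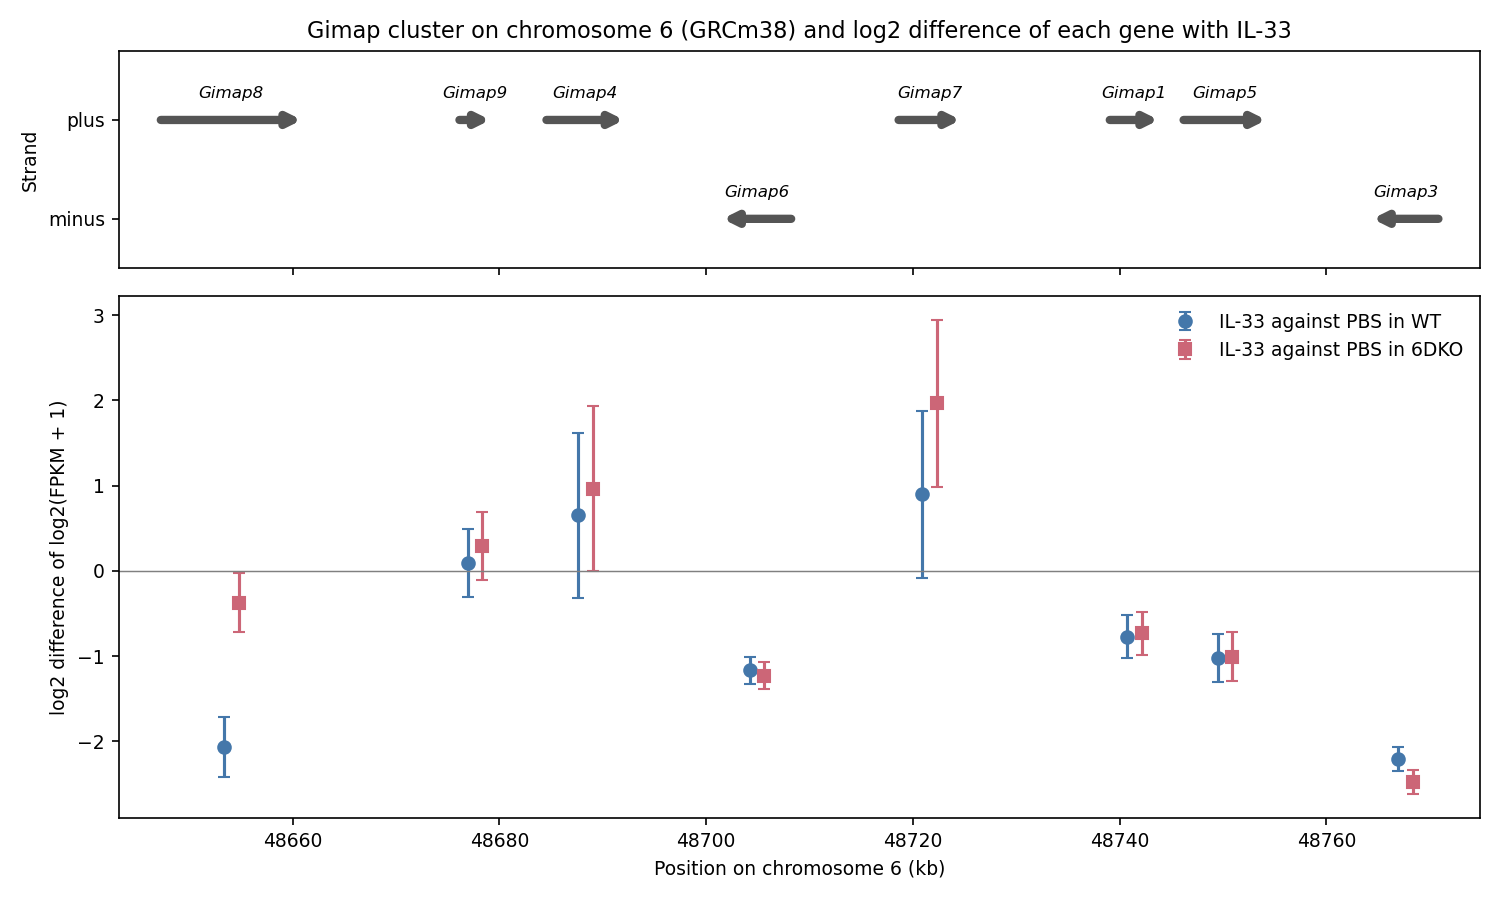
Top, the 8 genes on chromosome 6 drawn to scale in kb, with arrows in the direction of transcription. Bottom, the log2 difference between IL-33 and PBS (points, with SE) in WT and 6DKO; *Gimap3* is lowest in both at −2.21 and −2.48, *Gimap8* has the widest gap between the genotypes, and the *Gimap7* values rest on listed zeros under PBS.

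Of 23 neighbouring genes within 500 kb that are rows of the files, 12 had a mean of at least 0.5 FPKM. With IL-33, limma called 2 lower in each genotype, and 5 of the 23 had an unadjusted p under 0.05 in each. Of all genes, 1.63% were called lower in WT and 1.16% in 6DKO, and 17.8% and 15.4% had such an unadjusted p. The 2 called neighbours were *Tmem176b* and *Tmem176a*, which encode related multi-span membrane proteins and lie 63.0 and 70.1 kb beyond the cluster. *Tmem176b* was at 1008, 930 and 1076 FPKM in WT PBS and 352, 317 and 326 FPKM in WT IL-33. In 6DKO it was at 1484, 1371 and 1244 FPKM under PBS and 268, 364 and 297 FPKM under IL-33. Neither set of groups overlapped, and the log2 differences were −1.60 ± 0.13 in WT (SE; adjusted p = 0.000106, limma) and −2.15 ± 0.13 in 6DKO (SE; adjusted p = 1.12e-05, limma). *Tmem176a* fell by 1.88 in WT and by 2.02 in 6DKO on the same scale (adjusted p = 6.63e-05 and 2.54e-05, limma); both genes kept their calls under all 20 alternatives. The pair overlaps on opposite strands, so without strand the reads in their overlap cannot be told apart. No neighbour (0 of 23) was called between genotypes or for the interaction in limma, with 2, 0 and 1 at an unadjusted p under 0.05 under PBS, under IL-33 and for the interaction. In the same order, 70, 1 and 3 of all 11445 genes were called, and 1493, 222 and 651 had such an unadjusted p. With so few calls over all genes, the lack of calls among the neighbours says little about this region.

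The genes whose profile over the 12 libraries was nearest that of *Gimap6* were ranked among 7411 genes averaging 5 FPKM or more, by the root mean square distance of centred log2(FPKM + 1). The nearest was *Tbc1d9b*, which encodes a TBC-domain protein of the kind that acts on Rab GTPases, at a distance of 0.23. It was at 31.2, 35.8 and 33.7 FPKM in WT PBS, 48.7, 43.4 and 42.6 in 6DKO PBS, 16.0, 18.6 and 14.1 in WT IL-33, and 21.3, 21.5 and 26.1 in 6DKO IL-33. Like *Gimap6*, it was highest in 6DKO PBS and lowest in WT IL-33, a likeness that follows from its being picked as the nearest profile. *Spry2*, a feedback inhibitor of receptor tyrosine kinase signalling, came next at 0.30, then *Gcdh*, a mitochondrial dehydrogenase of lysine breakdown, at 0.30. *Egr1*, an immediate early transcription factor, and *Tk2*, the mitochondrial thymidine kinase, followed at 0.32 and 0.33. Of the other members, *Gimap5* ranked 4 at 0.31, *Gimap1* 581, *Gimap3* 725, *Gimap8* 754, *Gimap9* 2747, *Gimap4* 5848 and *Gimap7* 6514.

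Proteins reported to bind or act with GIMAPs include BCL2 family members and the GABARAP group. Of 9 such genes, limma called 1, *Bax*, a pro-apoptotic pore former, with IL-33 in WT and 0 in the other comparisons. The share of all genes called higher with IL-33 in WT was 2.69%. Of the 11445 genes, 346 were called with IL-33 in 6DKO and 70 between genotypes under PBS. There was 1 call between genotypes under IL-33, and 3 for the interaction. *Bax* was at 43.3, 87.2 and 122 FPKM in WT PBS and 186, 195 and 182 FPKM in WT IL-33, and at 129, 105 and 84.8 FPKM in 6DKO PBS and 160, 144 and 152 FPKM in 6DKO IL-33. Within each genotype the treatments did not overlap. The log2 difference in WT was 1.27 ± 0.31 (SE; adjusted p = 0.0426, limma), a call kept under 8 of 20 alternatives (adjusted p 0.0117 to 0.150) and lost without any 1 of 9 libraries, and in 6DKO it was 0.53 ± 0.31 (SE; adjusted p = 0.464, limma). *Gabarapl2*, which encodes the partner of GIMAP6, was at 444, 719 and 509 FPKM in WT PBS and 683, 524 and 524 FPKM in WT IL-33, and the groups overlapped. In 6DKO it was at 471, 501 and 447 FPKM under PBS and 569, 582 and 598 FPKM under IL-33, with no overlap (log2 difference 0.30 ± 0.17, SE; adjusted p = 0.449, limma). *Bcl2*, the survival factor, was at 107, 56.7 and 106 FPKM in WT PBS and 39.1, 46.8 and 40.5 FPKM in WT IL-33, with no overlap (log2 difference −1.02 ± 0.32, SE; adjusted p = 0.104, limma). In 6DKO it was at 76.9, 114 and 100 FPKM under PBS and 68.9, 58.7 and 34.3 FPKM under IL-33, again with no overlap (−0.88 ± 0.32, SE; adjusted p = 0.202, limma). At an unadjusted p under 0.05 there were 2, 1, 0, 0 and 0 of the 9 genes in the comparisons of IL-33 in WT, IL-33 in 6DKO, genotype under PBS, genotype under IL-33 and the interaction. Of the 11445 genes, 2041, 1759, 1493, 222 and 651 had such a p.

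Of 22 autophagy genes, 0 were called in any of the 5 comparisons in limma, with 3, 3, 2, 0 and 1 at an unadjusted p under 0.05 in the same order. The median log2 difference of the 22 with IL-33 was −0.09 in WT and 0.12 in 6DKO, against 0.16 and 0.14 over all genes.

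Of 15 genes of lymphocyte quiescence and recirculation, limma called 2 higher and 3 lower with IL-33 in WT and 2 higher and 2 lower in 6DKO. Of all genes, 2.69% were called higher and 1.63% lower in WT, and 1.86% higher and 1.16% lower in 6DKO. At an unadjusted p under 0.05 there were 6 of the 15 in each genotype, against 17.8% of all genes in WT and 15.4% in 6DKO. *Klf3*, a zinc-finger repressor, was at 93.5, 94.8 and 109.8 FPKM in WT PBS and 25.6, 25.7 and 25.6 FPKM in WT IL-33. It was at 116, 112 and 95.8 FPKM in 6DKO PBS and 26.0, 25.8 and 24.3 FPKM in 6DKO IL-33. Its 6 IL-33 libraries were thus close to each other and far below the PBS libraries (log2 difference −1.91 ± 0.18 in WT and −2.04 ± 0.18 in 6DKO, SE; adjusted p = 0.000255 and 0.000229, limma), and the calls held under all 20 alternatives in each genotype. *Tcf7*, a transcription factor of early lymphoid cells, went the other way, with a log2 difference of 1.71 ± 0.32 in WT and 1.77 ± 0.32 in 6DKO (SE; adjusted p = 0.0115 and 0.0133, limma), calls kept under 18 of 20 alternatives in each. *Btg2*, an anti-proliferative gene, was lower in both genotypes (−0.72 and −0.74 on the log2 scale; adjusted p = 0.0237 and 0.0282, limma), each call kept under 14 of 20 alternatives. *Btg1* was called lower and *Slfn2* higher in WT, under 9 and 11 of 20 alternatives, and *Ccr7* was called higher in 6DKO, under 14 of 20. The calls of *Btg2*, *Btg1*, *Slfn2* and *Ccr7* were each lost when any 1 of at least 4 libraries was left out, and those of *Tcf7* without WT IL-33 replicate 2 or 3 in WT and without 6DKO IL-33 replicate 1 or 3 in 6DKO. Between genotypes and for the interaction 0 of the 15 were called in limma, with 4, 0 and 2 at an unadjusted p under 0.05 (PBS, IL-33, interaction). In that order, 70, 1 and 3 of all 11445 genes were called, and 1493, 222 and 651 had such a p.

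Of 17 immunity-related and guanylate-binding GTPases, a separate family of inducible GTPases, 13 had a mean of at least 0.5 FPKM and 1, *Gbp6*, was called, higher with IL-33 in WT. It was at 0, 2.91 and 0.201 FPKM in WT PBS and 15.6, 10.6 and 15.8 FPKM in WT IL-33 (log2 difference 3.14 ± 0.77, SE; adjusted p = 0.0444, limma), and the call held under 8 of 20 alternatives and was lost without any 1 of 8 libraries. In 6DKO it was at 0, 4.88 and 0 FPKM under PBS and 14.5, 7.87 and 21.1 FPKM under IL-33 (log2 difference 3.00 ± 0.77, SE; adjusted p = 0.0664, limma). The median log2 difference of the 17 with IL-33 was 0.47 in WT and 0.87 in 6DKO, against 0.16 and 0.14 over all genes. In limma 0 of the 17 were called in the other 4 comparisons. At an unadjusted p under 0.05 there were 4 of the 17 with IL-33 in each genotype and 0 in the rest. With IL-33, 17.8% of all genes in WT and 15.4% in 6DKO had such a p, and 2.69% were called higher in WT. With IL-33 in 6DKO, 346 of all 11445 genes were called. For genotype under PBS, genotype under IL-33 and the interaction, 70, 1 and 3 were called, and 1493, 222 and 651 had such a p.

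Of 8 mTORC1 and lysosome genes, limma called *Lamp2*, a lysosomal membrane protein, higher with IL-33 in 6DKO and *Mtor* lower in 6DKO under PBS. *Lamp2* was at 13.5, 16.5 and 18.7 FPKM in 6DKO PBS and 60.5, 72.8 and 50.4 FPKM in 6DKO IL-33 (log2 difference 1.85 ± 0.28, SE; adjusted p = 0.00627, limma), a call kept under all 20 alternatives. In WT it was at 41.7, 42.1 and 24.3 FPKM under PBS and 75.6, 52.7 and 58.5 FPKM under IL-33, and the interaction was 1.05 ± 0.40 (SE; adjusted p = 0.842, limma). *Mtor* was at 3.41, 3.57 and 3.58 FPKM in WT PBS and listed at 0, 0 and 0.234 FPKM in 6DKO PBS, where listed zeros are common, and its call held under 8 of 20 alternatives and was lost without any 1 of 7 libraries. In limma 0 of the 8 were called in the other 3 comparisons, with 1 at an unadjusted p under 0.05 with IL-33 in WT, 0 between genotypes under IL-33 and 2 for the interaction. In that order, 17.8%, 1.94% and 5.69% of all genes had such a p, and 495, 1 and 3 of the 11445 were called. With IL-33 in 6DKO 1.86% of all genes were called higher, and between genotypes under PBS 0.612% were called.

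RefSeq start sites (GRCm38.p6) gave 9 promoter windows of 250 bases for the 8 members, 2 of them for *Gimap8*. Each window was searched on both strands for 5 short motifs. The ETS letters GGAAGT occur in 2 of the 9 windows (*Gimap5* and *Gimap6*) and in 19.7% of 32851 mouse promoter windows. The RUNX letters TGTGGT occur in 3 (*Gimap1*, *Gimap4* and *Gimap7*; 14.1% of all). The FOXO letters GTAAACA occur in 1 (*Gimap3*; 3.17% of all), the KLF letters GGGCGG in 2 (*Gimap7* and *Gimap9*; 32.7% of all) and the GATA letters AGATAA in 0 (9.99% of all). A match is a description of the letters and says nothing of binding. The windows of *Gimap6* and *Gimap3*, the 2 most abundant members averaged over the 12 libraries, and of *Gimap9*, whose groups overlapped in all 4 comparisons, are printed 5′ to 3′ on the gene's own strand, with motif letters in capitals. They lie at chr6:48708245-48708494 (minus strand), chr6:48770852-48771101 (minus strand) and chr6:48675885-48676134 (plus strand), just upstream of the first exon.
*Gimap6*: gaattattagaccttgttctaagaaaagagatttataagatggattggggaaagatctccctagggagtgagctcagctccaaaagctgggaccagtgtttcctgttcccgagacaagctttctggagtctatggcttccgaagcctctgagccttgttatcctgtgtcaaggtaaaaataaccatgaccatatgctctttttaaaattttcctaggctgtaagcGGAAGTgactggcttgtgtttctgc
*Gimap3*: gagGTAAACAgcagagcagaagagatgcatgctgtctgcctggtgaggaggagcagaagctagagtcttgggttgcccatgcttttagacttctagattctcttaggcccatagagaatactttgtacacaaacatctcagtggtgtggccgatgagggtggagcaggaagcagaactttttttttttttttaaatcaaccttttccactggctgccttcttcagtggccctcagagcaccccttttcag
*Gimap9*: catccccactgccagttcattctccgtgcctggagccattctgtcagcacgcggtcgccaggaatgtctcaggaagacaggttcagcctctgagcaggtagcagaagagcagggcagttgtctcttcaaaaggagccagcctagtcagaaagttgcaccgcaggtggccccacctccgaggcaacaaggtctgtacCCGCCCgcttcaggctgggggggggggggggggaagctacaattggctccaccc
The capitals are an ETS match in *Gimap6*, close to its start site, a FOXO match in *Gimap3*, at the far end of the window, and a KLF match on the opposite strand in *Gimap9*.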

How the data were processed

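RNA of sorted lung ILC2s was sequenced in 12 libraries, 3 in each of 4 groups, which were assigned by their labels. The authors deposited FPKM values for 24346 gene symbols, which already account for transcript length and library size. The submitters' processing notes name TopHat2 2.1.1, Bowtie2, Cuffdiff 2.2.1 and mm10, and the study's methods name other versions, Cuffnorm and a stranded library kit where the labels name SMART-Seq HT and Nextera kits. The annotation, and whether strand was used in counting, is not given in the sources used here.

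FPKM values hold no read totals. Relative depth came from 1727 genes under 3 FPKM, by the commonest ratio of their values between libraries. The deepest library had 1.88 times the depth of the shallowest.

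Differences were fitted with limma 3.58.1 (R 4.3.3; lmFit, eBayes with a trend, two-sided, Benjamini-Hochberg adjustment) on log2(FPKM + 1), as 4 group means without covariates. The fit covered 11445 genes that averaged 0.5 FPKM or more or stood on a list. The added 1 shrinks log2 differences of weakly expressed genes. With 3 libraries a group, p-values rest on the spread between these libraries. Each gene had 1 estimate of spread shared by the 4 groups, though the PBS groups were more spread. Between genotypes under IL-33, 222 genes had an unadjusted p under 0.05 in limma, and 1070 with the IL-33 groups alone. The shared spread can thus hide differences there, and a lack of calls under IL-33 does not show that the genotypes were alike. Members and lists were chosen with earlier results of these data known. Named genes were the members, *Sema6d*, the GIMAP partners, listed or neighbouring genes past adjusted p 0.05 (up to 3 in each direction), the 5 genes nearest *Gimap6*, and markers; not every partner is described. The depth estimate was tested on simulated data, and the fit on 2 simulated sets, the second made after the first had called many unchanged genes. The second called fewer. In both, unchanged genes were called most often between the PBS groups, next with IL-33 in WT, so calls in either of these comparisons may include unchanged genes.

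Other tools were Python 3.11.15, numpy 2.4.6, pandas 2.3.3, Biopython 1.88 and matplotlib 3.10.9. Alternatives were leaving out each library, fitting only the groups compared, blocking on the replicate number, array weights, quantile or median-of-ratios scaling, a pseudocount of 0.1, and either no filter or a minimum mean of 2 FPKM. Protein sequences were not used here.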

Additional observations from a re-analysis of the deposited data

How the results depend on the processing

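With *Gimap6* left out of all but the interaction, the numbers of members past an adjusted p of 0.05 stayed at 2, 1, 0, 0 and 0 (IL-33 in WT, IL-33 in 6DKO, genotype under PBS, genotype under IL-33, interaction) under every alternative run, apart from IL-33 in WT without WT PBS replicate 2, where 4 passed. Leaving out each library in turn gave 2 to 4 there. Of 792 log2 differences of single members under alternatives, 26 turned sign. Of these, 18 were interactions of 5 members, each of them smaller than its standard error. Leaving out single libraries gave ranges of −0.16 to 0.29 for *Gimap1*, −0.60 to 1.31 for *Gimap4*, −0.20 to 0.22 for *Gimap5*, −0.18 to 0.0275 for *Gimap6* and −0.10 to 0.75 for *Gimap9*, and array weights gave −0.22 for *Gimap4*. The other 8 were differences with no call, each on leaving out 1 PBS library. With IL-33 in WT, *Gimap4* went from 0.65 to −0.34 (without WT PBS replicate 3), *Gimap7* from 0.90 to −0.02 (replicate 2) and *Gimap9* from 0.09 to −0.45 (replicate 1). Under PBS, *Gimap4* went from 0.13 to −0.86 (without WT PBS replicate 3) or −0.82 (6DKO PBS replicate 2), *Gimap7* from −0.56 to 0.32 (WT PBS replicate 1) or 0.08 (6DKO PBS replicate 1), and *Gimap9* from 0.31 to −0.23 (WT PBS replicate 1). *Gimap7* with IL-33 in 6DKO was 3.40 with a pseudocount of 0.1 against 1.97. The cause was not tested.

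With the replicate block the same counts, without *Gimap6* in the first 4, were again 2, 1, 0, 0 and 0. Over all genes the block gave 364, 228, 15, 1 and 1 calls in place of 495, 346, 70, 1 and 3. The numbers do not pair the samples, since deviations of same-numbered libraries correlated between −0.05 and 0.04.

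Over all genes, the genotype comparison under PBS gave 70 calls, 36 with quantile normalization, 33 with no filter, and 1 with array weights or with the PBS groups alone. Under IL-33 it gave 1, 60 with array weights, 2 with a pseudocount of 0.1, and 0 with quantile normalization or the IL-33 groups alone. With IL-33 in 6DKO, array weights gave 214 calls against 346, and for the interaction they gave 1, and a pseudocount of 0.1 gave 5, against 3. Leaving out 1 library gave 224 to 706 calls with IL-33 in WT, 155 to 503 in 6DKO, 20 to 207 for genotype under PBS, 0 to 4 under IL-33 and 0 to 30 for the interaction. Zeros were common in PBS libraries among genes of a like level, so the listed zeros of *Gimap7* in 2 of these libraries do not show absence. The cause of the spread of *Gimap4* under PBS was not tested.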
